A study of Mus musculus with 36 samples.

Results

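The RANK-L cultures of Mir324-null and wild-type (WT) mice make up 12 of the 36 RNA-seq libraries of a study of mouse bone cells. They were chosen by their sample titles and genotype labels, and comprise 6 null osteoclast libraries (null OC) and 6 WT osteoclast libraries (WT OC). Both groups came from bone marrow of mice 20 weeks old, and their bone marrow macrophages spent 5 days in medium containing 30 ng/mL M-CSF, a macrophage growth factor, and 50 ng/mL RANK-L, the osteoclast-inducing cytokine. The sister cultures of each genotype (6 WT BMM and 6 null BMM libraries) received the same M-CSF without RANK-L for the same 5 days, and their levels are given as background. The labels give the genotype as Mir324-null; the allele, the strain and the sex of the mice are not given in the sources used here. They also do not state whether the libraries of a group came from separate mice, so the p-values measure the spread between these libraries, which may be technical. Of 30205 genes with summed transcript counts, 12121 had enough counts in the 12 libraries to be tested, and the comparison asks which of them differ in level between the genotypes.

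Osteoclasts are the multinucleate cells that dissolve bone. RANK-L binds its receptor RANK on macrophage precursors, the adaptor TRAF6 relays the signal to NF-kB and AP-1 factors, and these, with calcium signals from ITAM-linked receptors, raise the master transcription factor NFATc1. NFATc1 switches on the genes for cell fusion, attachment, acid secretion and matrix digestion, while factors such as IRF8 and Bcl6 hold precursors in the macrophage state until they are removed. A microRNA represses messages mainly by pairing of its seed, near its 5′ end, with sites in their 3′ untranslated regions.

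The Mir324 hairpin lies at chr11:70012043-70012131 on the plus strand (GRCm38) and gives a mature microRNA from each arm. Their sequences, from RefSeq, show which letters a target site would have to match; capitals mark the seed, bases 2 to 8. The 5p arm maps to chr11:70012060-70012082 and the 3p arm to chr11:70012095-70012114.
mmu-miR-324-5p: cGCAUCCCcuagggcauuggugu
mmu-miR-324-3p: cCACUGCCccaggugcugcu
The level of the microRNA itself was not analysed here, so the null label was not checked against the targeted gene.

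Seed matches in the longest annotated 3′ UTR (GENCODE M21) were looked up for the genes the results below turn on, and 20 of the 95 such genes with an annotated UTR had at least 1. Matches stood beside genes that were higher and genes that were lower in null OC. The windows below show them for the RANK receptor gene Tnfrsf11a and the proton pump gene Tcirg1, both lower in null OC, and for the repressor Irf8, which was higher, with the match in capitals; Tcirg1 matches the 3p arm and the others the 5p arm.
Tnfrsf11a, from base 405 of 3115: aaagagtgaaaGGGATGCacggccactac
Irf8, from base 135 of 1519: aagcccacagaGGGATGCgctcctgctca
Tcirg1, from base 655 of 2107: cacaagatgaaGGCAGTGtacctgaccct
The UTR was the longest over all annotated transcripts of a gene, whatever their type. It can therefore include bases that are coding in the main transcript. The Tcirg1 window can be read in frame without a stop codon and may be such a case. It is thus not established as a 3′ UTR site of the main Tcirg1 message. A match is a description of the sequence and does not show that the microRNA acts there.

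Each OC library held between 14118972 and 26347581 estimated counts, the lowest being null OC 6. The biological coefficient of variation was 9.37% in WT OC and 20% in null OC, or 16.5% in null OC without replicate 6. Among genes of at least 10 CPM (CPM is a count scaled by library size, here by TMM over the OC and BMM libraries), 181 of 8225 differed by more than 2-fold between null OC 6 and the median of the other 5 null libraries, against 62 for null OC 3 and 8 to 17 for the other null libraries. WT OC 4 had 72 such genes of 8160, and the other WT libraries 1 to 5. No pair of libraries was close enough to be copies: the closest, WT OC 3 and WT OC 6, had a chi-square of 3.46 per gene.

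Mir324-null RANK-L cultures had low levels of the main osteoclast transcripts. Most osteoclast protease and acid-secretion genes, and the fusion genes Dcstamp and Ocstamp, were lower, several of them near 0. Most macrophage, inflammatory and antioxidant genes were higher. Of the 12121 genes tested, 7946 (65.6%) passed an adjusted p of 0.05 (quasi-likelihood test of edgeR, adjusted by Benjamini-Hochberg across the 12121 genes). They comprised 3928 genes higher in null OC (32.4%) and 4018 lower (33.1%), and the median log2 fold change over all genes was -0.03. At least 2-fold changes were called for 1413 genes higher (11.7%) and 1270 lower (10.5%), and at least 16-fold changes for 103 higher (0.85%) and 174 lower (1.44%). The CPM ranges of the 6 null and the 6 WT libraries did not overlap for 5482 genes (45.2%). Because so many genes differed, a called gene is common here, and the counts below are read against these shares. All 9 osteoclast markers used to check the label (Ctsk, Acp5, Mmp9, Calcr, Dcstamp, Ocstamp, Atp6v0d2, Itgb3 and Oscar) were lower in null OC, so the name null OC stands for the RANK-L treatment and the deposited cell type label, which these markers go against. In bulk RNA, fewer cells of a type and less RNA per cell cannot be told apart.

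**Figure D1:**
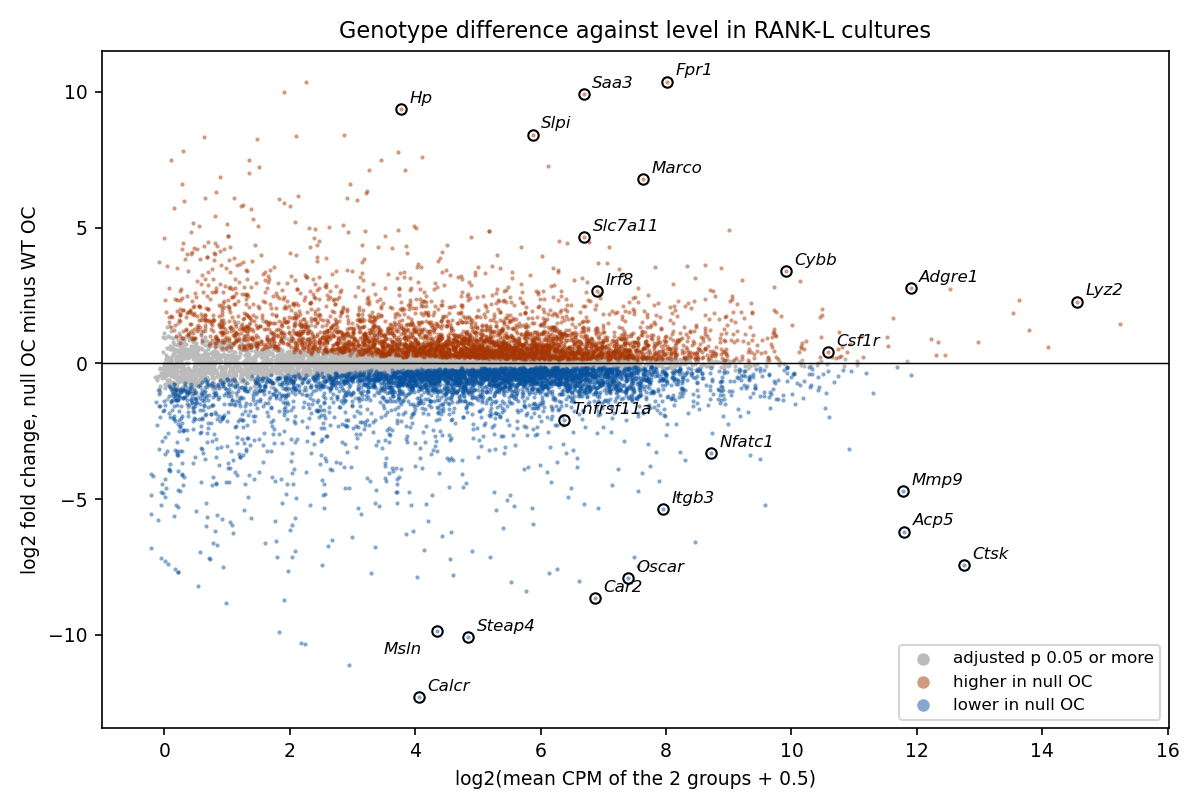
Each point is 1 of the 12121 genes tested; the x axis is log2 of the mean CPM of the 12 OC libraries' group means plus 0.5 and the y axis is the log2 fold change of null OC against WT OC, with called genes in colour. Ctsk, Acp5 and Mmp9 lie far below 0 at high levels, and Fpr1 and Saa3 lie near a log2 fold change of 10.

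The order of the most abundant messages differed between the genotypes on the deposited TPM scale, which is per transcript length. Ctsk, the collagen-cleaving protease cathepsin K, ranked 2 in WT OC at 16530 ± 541 TPM (SD, n = 6) and averaged 82.1 TPM in null OC. Acp5, the tartrate-resistant acid phosphatase that stains osteoclasts, averaged 9345 ± 512 TPM in WT OC and 108.6 TPM in null OC. The iron-storage gene Ftl1 ranked 1 in both groups, at 41440 ± 1826 TPM in WT OC against 98200 ± 8781 TPM in null OC. In null OC it was followed by the macrophage lysozyme Lyz2, at 49810 ± 3141 TPM, and by Fth1, the other ferritin chain, at 42150 ± 6758 TPM. Prdx1, a peroxiredoxin that removes peroxides, averaged 15040 TPM in null OC and 2600 TPM in WT OC. The osteoclast genes of the WT list thus dropped out of the 15 most abundant messages of null OC.

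Resorption depends on enzymes that digest matrix and on a pump and channel that acidify the space beneath the cell. Of the 12 genes fixed for resorption and acid secretion, 11 were lower in null OC and none was higher, with a median log2 fold change of -2.75. Ctsk had CPM of 13000 (lowest), 13750 (median) and 14410 (highest) in WT OC. In null OC the values were 36.7, 55.6 and 222. The groups did not overlap, and the highest null value was that of replicate 6. The log2 fold difference was -7.43 (SE 0.48, adjusted p 1.94e-08, edgeR), and -8.05 without null OC 6. In the M-CSF cultures Ctsk averaged 7.77 ± 1.37 CPM in WT BMM against 3.96 ± 1.00 CPM in null BMM, so null OC held a low level above that of cultures without RANK-L.

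Acp5 ran from 6806 to 7294 CPM (median 7002) in WT OC and from 64.2 to 165 CPM (median 88.5) in null OC, with replicate 6 again highest. The groups were far apart, with a log2 fold difference of -6.20 (SE 0.21, adjusted p 5.33e-12). Car2, the carbonic anhydrase that supplies protons, ran from 217 to 255 CPM (median 233) in WT OC and from 0 to 1.43 CPM (median 0.462) in null OC, a log2 fold difference of -8.65 (SE 0.30, adjusted p 3.95e-12). Mmp9, a gelatinase, ran from 6064 to 7859 CPM (median 6724) in WT OC and from 202 to 321 CPM (median 259) in null OC, a log2 fold change of -4.70. Without RANK-L it averaged 0.333 ± 0.200 CPM in WT BMM against 185 ± 23.8 CPM in null BMM. The Mmp9 level of null OC was thus nearer to that of null BMM than to that of WT OC.

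The remaining members fell by less than Mmp9, except Atp6v0d2. This gene encodes the osteoclast subunit of the vacuolar proton pump and averaged 1481 ± 54.6 CPM in WT OC against 40.2 ± 6.44 CPM in null OC (log2 fold change -5.21). Slc4a2, the bicarbonate exchanger that balances acid secretion, had a log2 fold change of -3.55. Snx10, which sorts vesicles to the resorbing membrane, ran from 906 to 979 CPM in WT OC and from 226 to 260 CPM in null OC (-1.95). Tcirg1, the pump subunit mutated in osteopetrosis, ran from 1164 to 1308 CPM in WT OC and from 334 to 435 CPM in null OC (-1.64). Clcn7, the chloride exchanger paired with the pump, ran from 640 to 772 CPM and from 251 to 298 CPM (-1.32). None of these overlapped between the groups. Ostm1 (-0.94) and Plekhm1 (-1.01) fell by less, and Mmp14, a membrane-bound matrix protease, did not pass (-0.19, adjusted p 0.14).

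**Figure D2:**
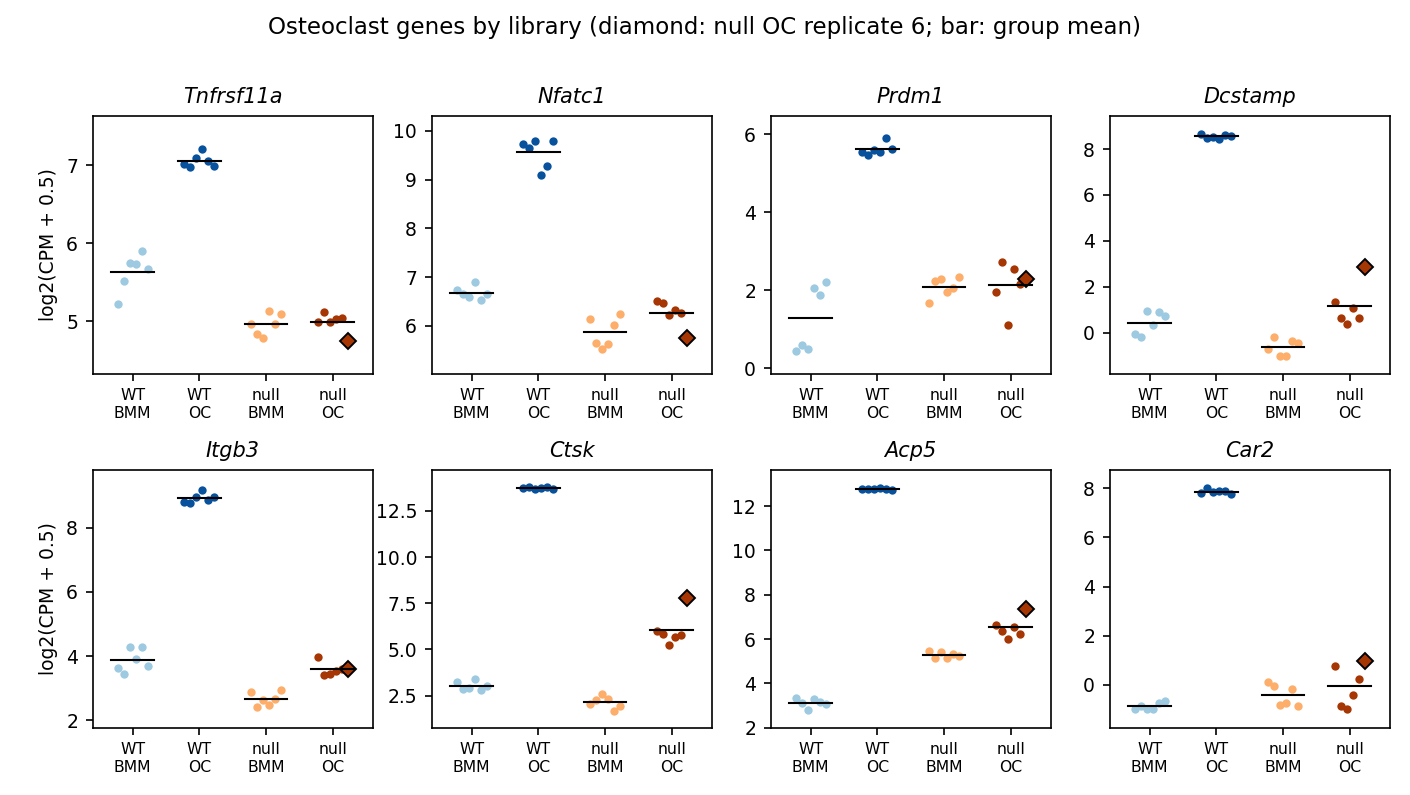
Log2(CPM + 0.5) of 8 osteoclast genes in each library of WT BMM, WT OC, null BMM and null OC; a point is 1 library, a bar the group mean and the diamond null OC replicate 6. The WT OC points stand above the 3 other groups in each panel, and for Ctsk, Acp5 and Dcstamp the diamond lies above the other null OC points.

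Proton pump (V-ATPase) subunits were mostly lower. Of 19 genes tested from a list of 25, 15 were lower and 4 higher, with a median log2 fold change of -1.01. Atp6v1b2 fell by 1.98 and Atp6v1a by 1.29 on the log2 scale; both belong to the catalytic head. The 4 higher members were Atp6v0a1 (1.05), Atp6v0d1 (0.35), Atp6v0a2 (0.18) and Atp6v1g2 (0.67), of which Atp6v0a1 and Atp6v0d1 are the broadly expressed counterparts of Tcirg1 and Atp6v0d2. General lysosomal genes did not follow: 14 of 23 were higher and 5 lower (median 0.27). Ctsd, an aspartic protease of lysosomes, averaged 5094 ± 42.2 CPM in WT OC against 18550 ± 1217 CPM in null OC (log2 fold change 1.86).

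Cell fusion genes were called in both directions. Of the 9 members tested, 4 were lower and 5 higher (median 0.16). Dcstamp, a membrane protein without which osteoclast precursors stay mononuclear, ran from 350 to 405 CPM (median 374) in WT OC. In null OC it ran from 0.794 to 6.86 CPM (median 1.33). The groups did not overlap, and without null OC 6 the highest null value was 2.06 CPM. The log2 fold difference was -7.48 (SE 0.34, adjusted p 2.58e-10). Ocstamp, its partner, ran from 334 to 381 CPM in WT OC and from 0.600 to 11.4 CPM in null OC (-7.12, SE 0.51, adjusted p 5.57e-08), with replicate 6 highest. The adhesion receptor Cd44 was also lower (-1.5), as was the tetraspanin Cd9 (-0.65). The tetraspanin Cd81 (1.96), the ATP-gated channel P2rx7 (1.27), Adam8 (1.02), Sirpa (0.62) and Cd47 (0.16) were higher.

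Receptors and signalling proteins upstream of NFATc1 moved unevenly. Of 24 genes, 10 were higher, 6 were lower and 8 did not pass (median 0.16). Tnfrsf11a, which encodes the receptor RANK, ran from 126 to 147 CPM (median 130) in WT OC and from 26.5 to 34.3 CPM (median 31.7) in null OC. The groups did not overlap, with a log2 fold difference of -2.09 (SE 0.07, adjusted p 9.7e-14). Null OC stood at the level of null BMM, which averaged 30.8 ± 2.97 CPM, while WT BMM averaged 49.6 ± 7.76 CPM. Traf6, the adaptor bound by RANK, ran from 89.2 to 108 CPM in WT OC and from 12.2 to 24.9 CPM in null OC, a log2 fold difference of -2.40 (SE 0.13, adjusted p 7.81e-11). It was also lower in the null cultures without RANK-L, at 17.1 CPM in null BMM and 49.3 CPM in WT BMM.

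The co-receptor genes Oscar and Siglec15 were near 0 in null OC. Oscar, an ITAM-linked collagen receptor, ran from 318 to 343 CPM (median 333) in WT OC and from 0.505 to 3.39 CPM (median 1.17) in null OC, with replicate 6 highest (log2 fold change -7.90, SE 0.21, adjusted p 5.16e-14). Siglec15, a sialic acid receptor that also signals through an ITAM adaptor, ran from 29.6 to 34.3 CPM in WT OC and from 0 to 0.274 CPM in null OC (-7.88). Src, the kinase needed for the ruffled border, ran from 111 to 122 CPM and from 6.86 to 10.9 CPM (-3.73, SE 0.10, adjusted p 1.01e-14). None of these overlapped between the groups.

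Other signalling genes were higher or little changed. Csf1r, the receptor for M-CSF, ran from 1203 to 1438 CPM in WT OC and from 1551 to 2204 CPM in null OC, a log2 fold difference of 0.40 (SE 0.08, adjusted p 1.99e-04). Trem2, a receptor of macrophages and osteoclasts that is also linked to an ITAM adaptor, ran from 204 to 242 CPM in WT OC and from 656 to 855 CPM in null OC (1.76). Also higher were the ITAM adaptor Fcer1g (0.95) and the kinase Syk (0.71). The NF-kB subunits Rela (0.88), Relb (0.69) and Nfkb1 (0.52) were higher as well, while Nfkb2 (-0.08, adjusted p 0.33) did not pass and its groups overlapped. The adaptor Tyrobp (0.10, adjusted p 0.32) and the kinase genes Map3k7 (-0.04), Chuk (0.28) and Ikbkb (0.05) did not pass.

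The transcription factors that drive osteoclast genes were mostly lower, 9 of 13 against 3 higher, with a median log2 fold change of -1.01. Nfatc1 ran from 548 to 888 CPM (median 831) in WT OC and from 53.3 to 90.8 CPM (median 78.1) in null OC. The ranges were well apart, and here null OC 6 was the lowest of its group. The log2 fold difference was -3.31 (SE 0.15, adjusted p 1.84e-11), and null OC stood between the averages of null BMM (59.1 ± 12.7 CPM) and WT BMM (102 ± 9.60 CPM). Prdm1, a repressor that NFATc1 uses to silence Irf8, ran from 44.1 to 59.3 CPM in WT OC and from 1.66 to 6.06 CPM in null OC (-3.55, SE 0.19, adjusted p 7.46e-11). Jdp2, an AP-1 family member, had a log2 fold change of -3.63, and Ppargc1b, a coactivator of mitochondrial growth in osteoclasts, one of -3.30.

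Factors shared with macrophages changed less. Fos ran from 200 to 268 CPM in WT OC and from 78.2 to 118 CPM in null OC, a log2 fold difference of -1.26 (SE 0.10, adjusted p 9.12e-09). Fosl2 (-1.88) and Myc (-1.01) were also lower. Mitf, which acts with the factor PU.1 on Ctsk and Acp5, ran from 105 to 122 CPM in WT OC and from 42.8 to 79.6 CPM in null OC (-0.68, SE 0.11, adjusted p 5.52e-05). The CPM ranges of Spi1, the gene of PU.1, overlapped, at 501 to 765 CPM in WT OC against 459 to 559 CPM in null OC, and its log2 fold difference was -0.42 (SE 0.09, adjusted p 8.13e-04). Jun (0.76), Tfe3 (0.62) and Tfeb (0.34) were higher, and Esrra did not pass (0.15, adjusted p 0.36).

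Of 12 repressors of osteoclast formation, 7 were higher and 3 lower (median 0.51). Irf8 ran from 30.7 to 34.1 CPM (median 33.1) in WT OC and from 176 to 241 CPM (median 202) in null OC. The groups did not overlap, with a log2 fold difference of 2.65 (SE 0.08, adjusted p 3.42e-14). WT BMM averaged 268 ± 7.11 CPM and null BMM 188 ± 20.0 CPM, so the level was low in WT OC alone among the 4 groups. Bcl6, a direct repressor of osteoclast genes, rose from 7.89 to 21.3 CPM (1.42). Lilrb4a (1.35), Id1 (1.57), Id2 (0.88) and Rbpj (0.31) were also higher. Nr4a1 (-2.69), Bach2 (-1.32) and the deubiquitinase Cyld (-0.67) were lower, while Id3 (-0.72, adjusted p 0.10) and Tnfaip3 (0.08) did not pass.

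Attachment genes were lower chiefly for the osteoclast integrin and the actin regulators of the sealing zone. Of 17 integrin and podosome genes, 10 were lower and 4 higher (median -0.31). Itgb3, which pairs with Itgav to bind bone matrix, ran from 431 to 572 CPM in WT OC and from 10.2 to 15.02 CPM in null OC (log2 fold change -5.37, SE 0.10, adjusted p 1.74e-16). Itgav ran from 660 to 804 CPM and from 102 to 138 CPM (-2.56, SE 0.08, adjusted p 5.7e-14). Both pairs of ranges were separate. Cttn, the actin regulator cortactin (-2.52), Vcl, vinculin (-2.21), and Pxn, paxillin (-1.28), were lower. Itgb5 (1.36), another partner of Itgav, the kinase Ptk2b (0.80), Fermt3 (0.46) and Rac2 (0.38) were higher.

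Calcr, the calcitonin receptor that marks mature osteoclasts, ran from 29.5 to 36.1 CPM in WT OC and had 0 counts in all 6 null libraries. Against a floor of 3 counts per library it was at least 188-fold lower in null OC, and it was also at 0 in both BMM groups. Among genes that couple resorption to bone formation, 6 of the 8 tested from a list of 12 were lower and 2 higher (median -0.98). Sphk1, which makes sphingosine 1-phosphate, averaged 17.5 ± 0.851 CPM in WT OC against 0.940 ± 1.31 CPM in null OC, where replicate 6 had 3.54 CPM and the others at most 0.920. Efnb2, a membrane ligand of osteoblast receptors, averaged 4.15 and 0.0859 CPM, and Cthrc1 11.6 and 1.64 CPM. Sema4d (-1.03) and Pdgfb (-0.93) were lower, while the complement gene C3 (3.29) and Hgf (2.47) were higher.

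Macrophage genes were mostly higher in null OC than in WT OC, 14 of 17 being higher and 1, Cd68 (-0.27), lower, with a median log2 fold change of 1.54. Their summed level was 13880 to 16430 CPM in WT OC against 54130 to 65500 CPM in null OC 1 to 5, with 56040 CPM in null OC 6, mostly from Lyz2. Without RANK-L the sum was 49250 to 60040 CPM in WT BMM and 57790 to 66500 CPM in null BMM. The summed level was thus low in WT OC alone among the 4 groups. Adgre1, the surface antigen F4/80, ran from 938 to 1016 CPM (median 981) in WT OC and from 5262 to 8234 CPM (median 6924) in null OC. The groups did not overlap (log2 fold change 2.77, SE 0.09, adjusted p 1.23e-13). Cd14, a receptor for bacterial lipid, ran from 156 to 170 CPM in WT OC and from 818 to 949 CPM in null OC (2.47, SE 0.05, adjusted p 3.59e-16). The complement genes C1qb (1.77), C1qc (1.71) and C1qa (1.24) were higher than in WT OC, as were the scavenger receptors Cd163 (1.99), Msr1 (1.54) and Stab1 (1.21). Beside WT BMM, members went both ways: null OC was above its range for Adgre1 and Cd14 and below it for C1qb and Cd163. Mrc1 (0.26, adjusted p 0.32) and Ccr2 (-0.37, adjusted p 0.45) did not pass.

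The highest fold changes belonged to inflammatory genes, of which 21 of 22 tested were higher and none lower (median 4.23). The untested member, Il6, averaged 0 CPM in WT OC against 0.377 CPM in null OC. Fpr1, a receptor for formylated peptides that guides phagocytes, ran from 0.240 to 0.664 CPM (median 0.333) in WT OC. In null OC it ran from 467 to 578 CPM (median 509). No WT library came near this range (log2 fold change 10.38, SE 0.12, adjusted p 7.49e-19). Saa3, an acute-phase protein, averaged 0.208 ± 0.0526 CPM in WT OC against 206 ± 30.5 CPM in null OC (9.91), and Acod1, which makes the antimicrobial metabolite itaconate, 0.896 ± 0.294 and 138 ± 23.0 CPM (7.26). Marco, a scavenger receptor, averaged 3.55 ± 0.468 and 394 ± 18.2 CPM (6.78). These genes were as high in the null cultures without RANK-L: null BMM averaged 558 ± 23.6 CPM of Fpr1, 382 ± 96.4 of Saa3, 129 ± 16.7 of Acod1 and 588 ± 48.3 of Marco, while WT BMM averaged 1.41, 1.43, 1.57 and 15.8 CPM.

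Among cytokines and chemokines of the same list, Ccl2, which recruits monocytes, had the highest level. It ran from 173 to 249 CPM in WT OC and from 240.5 to 836 CPM in null OC, so that the groups overlapped (log2 fold change 1.18, SE 0.27, adjusted p 0.00169). The chemokine Ccl4 ran from 12.6 to 18.3 CPM in WT OC and from 61.6 to 133 CPM in null OC (2.40). Tnf rose from 5.07 to 38.1 CPM (log2 fold change 2.90), Cxcl2 from 4.91 to 58.0 CPM (3.56) and Ptgs2, the inducible prostaglandin synthase, from 0.563 to 16.8 CPM (4.88). Il1b ran from 0 to 0.203 CPM in WT OC and from 1.06 to 3.10 CPM in null OC (4.47, SE 0.45, adjusted p 1.69e-07), with only 11 counts over the WT group. Il1rn, the interleukin 1 receptor antagonist, did not pass (0.04, adjusted p 0.78). Interferon-stimulated genes did not share this pattern: none of 12 was higher and 3 were lower, Irf7 (-1.69), Oas2 (-1.67) and Cxcl10 (-1.16), with a median of -0.05.

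Antioxidant and NADPH oxidase genes were higher in 13 of 14 cases and lower in none (median 1.06). Cybb, the catalytic subunit of the phagocyte oxidase, ran from 151 to 179 CPM in WT OC and from 1495 to 1940 CPM in null OC (log2 fold change 3.41, SE 0.07, adjusted p 2.12e-16). Slc7a11, the cystine importer that feeds glutathione synthesis, ran from 6.57 to 9.24 CPM in WT OC and from 172 to 246 CPM in null OC (4.65, SE 0.12, adjusted p 4.87e-15). The groups were separate for both genes. Hmox1, heme oxygenase (3.08), Gclm, a subunit of the first enzyme of glutathione synthesis (3.49), and Nqo1 (2.16) rose with their activator Nfe2l2 (1.13) and with its inhibitor Keap1 (0.99). Ncf4 did not pass (-0.10, adjusted p 0.091).

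**Figure D3:**
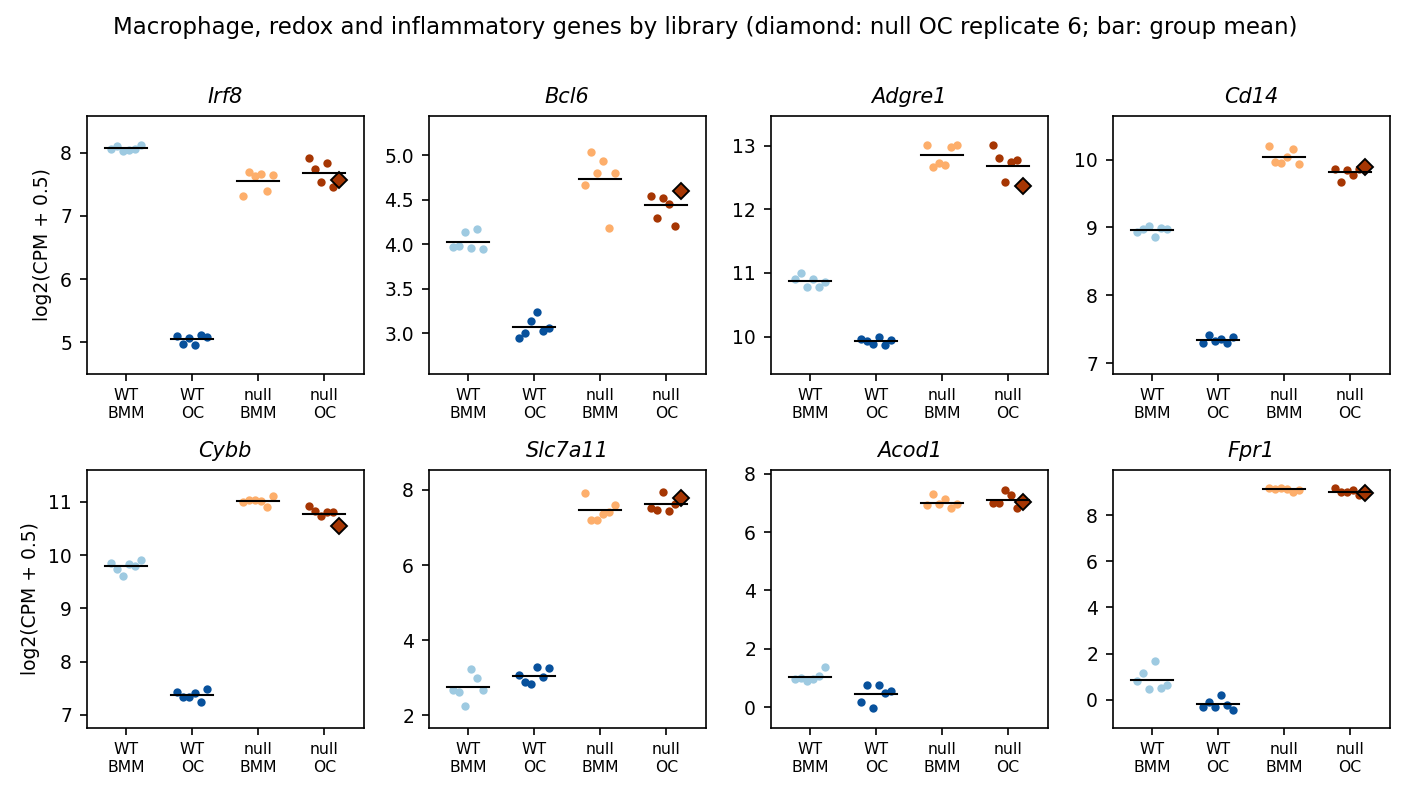
Log2(CPM + 0.5) of 8 macrophage, redox and inflammatory genes in each library of the 4 groups, with a bar for the group mean and a diamond for null OC replicate 6. Null OC lies beside null BMM in each panel, while for Irf8, Bcl6, Adgre1, Cd14 and Cybb the WT OC points are the lowest.

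Genes that present antigen on MHC class II were called in both directions, with 5 of 9 tested from a list of 11 lower and 4 higher (median -1.62). Cd74, the invariant chain, averaged 370 ± 29.1 CPM in WT OC against 47.5 ± 5.78 CPM in null OC (log2 fold change -2.97). H2-Aa (-3.85), H2-Eb1 (-2.85), H2-Ab1 (-1.62) and their activator Ciita (-3.01) were lower. The peptide-loading genes H2-DMa (1.51), H2-DMb1 (0.47) and H2-DMb2 (1.41) and the modulator H2-Ob (4.62, under 1 CPM in both groups on average) were higher. In the list of alternative activation, the fatty acid receptor Cd36 (2.80) and Il4ra (1.91) were higher and Clec10a (-1.61) and Mgl2 (-2.06) lower, with 2 of the 6 tested not passing.

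Genes of mitochondrial energy production were lower almost without exception. All 15 tricarboxylic acid cycle genes were lower (median log2 fold change -1.28), as were all 13 protein-coding genes of the mitochondrial genome (median -1.09) and 72 of 78 tested nuclear genes of oxidative phosphorylation from a list of 82 (median -0.77), and no member of the 3 lists was higher. CPM ranges were separate for all 15, for 12 of 13 and for 49 of 78 in the same order, beside 45.2% of all genes tested. Pdhb, a subunit of pyruvate dehydrogenase, ran from 269 to 314 CPM in WT OC and from 78.5 to 89.9 CPM in null OC (-1.81, SE 0.06, adjusted p 1.03e-13). Uqcrfs1, the iron-sulphur protein of respiratory complex III, ran from 334 to 395 CPM and from 100.4 to 114 CPM (-1.83, SE 0.06, adjusted p 7.5e-14). mt-Nd2, a mitochondrially encoded subunit of complex I, ran from 293 to 371 CPM and from 107 to 143 CPM (-1.40). The groups did not overlap for these genes, and the null OC levels were near those of WT BMM, at 93.0, 117 and 139 CPM in the same order.

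Glycolysis and growth genes were mixed. Of 20 glycolysis genes, 11 were lower and 6 higher (median -0.31). Pdk1, which inhibits pyruvate dehydrogenase, fell by 1.61 and Gpi1 by 1.06 on the log2 scale, while Pfkfb3, which speeds glycolysis, rose by 2.62. Of 22 cholesterol synthesis genes, 10 were lower and 5 higher (median -0.15), with Insig1 at -1.10 and Hmgcs1 at -0.96. Cell cycle genes were higher for 12 and lower for 10 of 23 (median 0.30), with 11 higher and 6 lower in a fit of 24 libraries. The list was led by Ccne1 (1.39) and Ccnd1 (1.05), while Mki67 (0.39) and Top2a (-0.18) changed little. Cytosolic ribosomal protein genes were lower for 70 of 77 tested from a list of 82 and higher for none (median -0.62). Many of these have near-identical processed copies among which estimated counts can be split, so their values are uncertain.

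**Figure D4:**
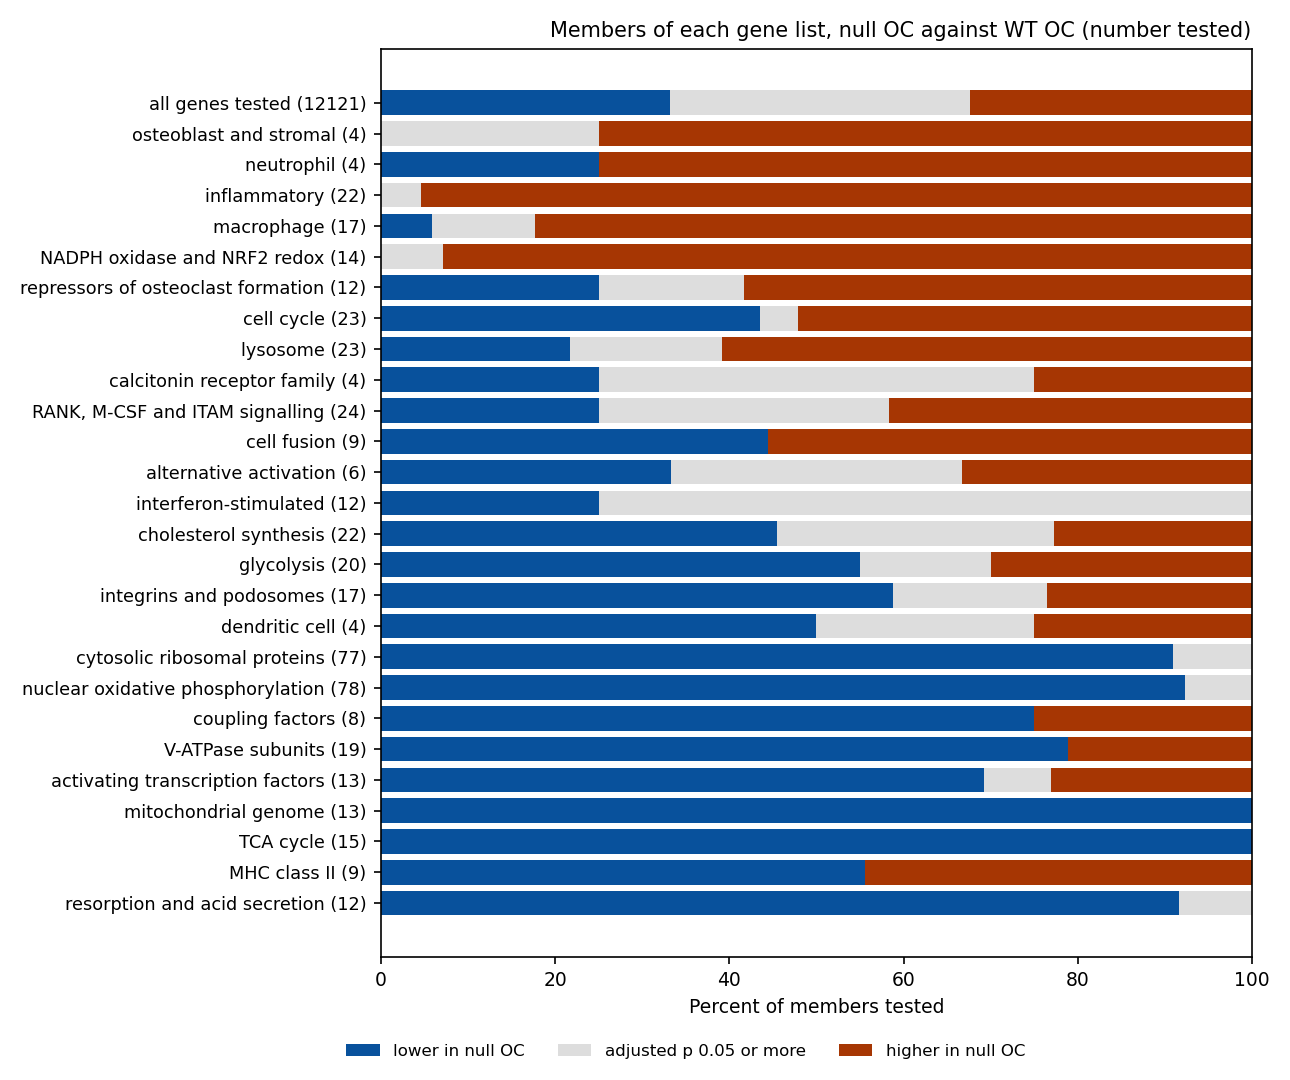
For each gene list with at least 4 members tested, and for all genes tested, the bar shows the percent of members lower in null OC, not passing an adjusted p of 0.05, and higher in null OC. Resorption, tricarboxylic acid cycle and mitochondrial genome lists are almost wholly lower, and the inflammatory and NADPH oxidase and NRF2 redox lists almost wholly higher, beside 33.1% lower and 32.4% higher over all genes.

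Beyond these lists, genes at a mean of at least 10 CPM with separate ranges were ranked by fold change. The lower end held Calcr, St8sia6, Steap4, Msln, Car2, F2r, Mst1r and Mt3. St8sia6, a sialyltransferase, ran from 10.8 to 17.7 CPM in WT OC and had no count in null OC, at least 83.5-fold lower against the floor. Steap4, a metalloreductase, averaged 56.4 ± 4.51 CPM in WT OC and had 5 counts in all of null OC. Msln, mesothelin, averaged 39.8 ± 4.10 CPM in WT OC and had 4 counts in null OC. F2r, the thrombin receptor, averaged 107 ± 9.54 and 0.294 ± 0.240 CPM (log2 fold change -8.38, SE 0.22, adjusted p 7.9e-15). Mst1r, a receptor tyrosine kinase, averaged 90.8 CPM in WT OC and lay at or below 0.187 CPM in null OC 1 to 5 but at 2.41 CPM in null OC 6. Mt3, a metallothionein, averaged 194 CPM and 0.887 CPM. All of them were under 1 CPM on average in both BMM groups, so these transcripts were abundant in WT OC alone among the 4 groups.

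The upper end held Fpr1, Saa3, Hp, Cxcl3, Slpi, Fpr2, Cd38 and Serpinb2. Slpi, a secreted inhibitor of neutrophil proteases, averaged 0.341 ± 0.238 CPM in WT OC against 116 ± 20.4 CPM in null OC (log2 fold change 8.42, SE 0.25, adjusted p 8.31e-14). Hp, haptoglobin, had 4 counts in all of WT OC and averaged 26.4 ± 4.81 CPM in null OC. Cd38, an enzyme that consumes NAD, averaged 0.165 ± 0.124 and 33.3 ± 1.85 CPM (7.59, SE 0.22, adjusted p 3.23e-14). Fpr2 averaged 25.4, Serpinb2 20.8 and Cxcl3 13.6 CPM in null OC, each under 0.2 CPM on average in WT OC. All 8 stood at 10.2 to 558 CPM in null BMM and at or below 1.47 CPM in WT BMM, so they were also high in the null cultures that had no RANK-L.

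Null OC 6 departed from its group in a set of genes, some of which also varied between libraries of other groups. Of the 181 genes more than 2-fold from the median of the other 5 null libraries, 155 were lower and 26 higher. Ibsp, bone sialoprotein, was at 37.5 CPM in null OC 6 and at 0 to 0.125 CPM in null OC 1 to 5. The fibrillar collagen genes Col3a1 (25.0 against 1.37 to 8.26 CPM) and Col5a1 (11.3 against 0.144 to 3.20 CPM) and the calcium-binding protein gene Calb1 were among the 8 highest, with Ocstamp, Epha10 and the gene models Gm13835 and Gm19087. The lowest were Plk3 (4.38 against 20.6 to 47.0 CPM), Map4k5 (2.11 against 13.1 to 22.9 CPM), Rarg (1.36 against 8.13 to 11.1 CPM), Rfx5, Lifr, Klf3, Cmpk2 and Snx20. Osteoclast genes were raised unevenly in this library: Ctsk, Acp5, Dcstamp, Ocstamp, Oscar, Mst1r and Mt3 were above the range of the other 5, Mmp9 and Itgb3 were within it, and Nfatc1, Mitf, Traf6 and Tnfrsf11a were below it. Its Ctsk level of 222 CPM was still far under the lowest WT value of 13000 CPM. Some genes of the set varied elsewhere too. Plk3 was at 2.38 CPM in WT OC 4 and at 4.36 to 7.91 CPM in the other WT OC libraries. Calb1 was at 44.7 CPM in null OC 6 and at 69.6 CPM in null BMM 3. Epha10 was at 71.0 CPM in null OC 6 and at 55.6 CPM in null BMM 5. Ibsp and Col3a1 were not as high in any BMM library.

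**Figure D5:**
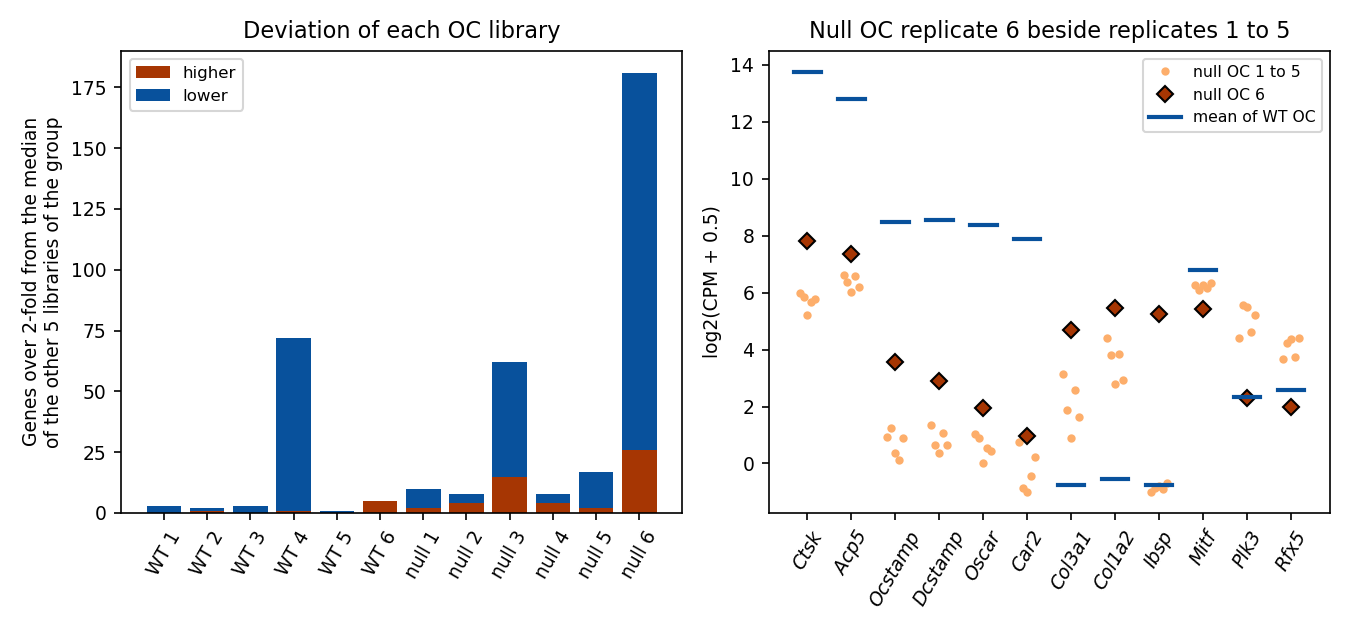
Left: genes of at least 10 CPM that lie more than 2-fold above or below the median of the other 5 libraries of the same group, for each of the 12 OC libraries; null OC 6 has 181. Right: log2(CPM + 0.5) of 12 genes in null OC 1 to 5 (points) and null OC 6 (diamonds), with the WT OC mean as a line; Ibsp and Col3a1 are higher in null OC 6, and Ctsk and Acp5 are raised there but stay far below the WT mean.

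Leaving out null OC 6 did not remove the difference. With 5 null libraries, 8284 of 12253 genes passed (67.6%), 4087 higher (33.4%) and 4197 lower (34.3%), and 7748 genes were called with the same sign with and without it. The counts for resorption (11 lower of 12), macrophage (14 higher of 17) and inflammatory genes (21 higher of 22) were the same. Of the stromal genes, Col1a1 was at 182 CPM in null OC 6 and at 44.1 to 77.0 CPM in the other 5, which stayed above the WT OC range of 7.41 to 9.49 CPM.

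Markers of other cell types were mostly scarce, and their part in the differences was not tested. Osteoblast and stromal markers summed to 13.0 to 15.3 CPM in WT OC, 60.2 to 114 CPM in null OC 1 to 5 and 276 CPM in null OC 6, and 3 of the 4 tested of 10, Col1a1 (3.37), Col1a2 (6.28) and Postn, were higher. Postn had 0 counts in WT OC and was at least 43.6-fold higher in null OC. The defining osteoblast markers Alpl, Bglap and Sp7 averaged under 0.1 CPM in both groups. Neutrophil markers summed to 18.4 to 22.2 CPM in WT OC, 318 to 388 CPM in null OC 1 to 5 and 277 CPM in null OC 6; only 4 of 14 were tested, with Mmp8 (4.29), Csf3r (4.88) and S100a8 (5.81) higher and Cxcr2 (-0.63) lower. Ly6g, Elane, Ltf and Retnlg had 0 counts in all 12 libraries. The platelet chemokine genes Pf4 (4.90) and Ppbp (7.11) were higher, while the megakaryocyte markers Itga2b, Gp9 and Gp1bb averaged at most 0.264 CPM.

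Lymphoid and other markers were lower still. T cell markers summed to at most 8.40 CPM in any OC library, B cell markers to at most 1.96 CPM, mast cell markers to at most 0.776 CPM and erythroid markers to at most 0.432 CPM. The 1 B cell marker tested, Cd79b, had 0 counts in all 6 WT OC libraries and ran from 0.809 to 1.48 CPM in null OC, at least 7.66-fold higher against a floor of 3 counts per library (adjusted p 6e-07, edgeR). Of the dendritic cell markers, 4 of 9 were tested: Itgax (-1.77) and Zbtb46 (-2.33) were lower, Batf3 (3.10) higher, and Xcr1 did not pass. The adipocyte list rested on Fabp4 (2.81), which macrophages also express; Adipoq averaged at most 0.0104 CPM, and Plin1, Cfd and Lep had 0 counts. Among endothelial genes Kdr was lower (-1.34) and Pecam1 did not pass (0.33, adjusted p 0.17).

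The genotype difference in RANK-L cultures was compared with that in M-CSF cultures by an interaction term over 24 libraries. It passed for 6502 of 12661 genes (51.4%), being more positive in OC for 3197 (25.3%) and more negative for 3305 (26.1%). All 15 tricarboxylic acid cycle genes, all 13 mitochondrially encoded genes and 77 of 78 nuclear oxidative phosphorylation genes had a more negative genotype difference in OC. The same held for 11 of 12 resorption genes, and 16 of 17 macrophage genes had a more positive one. Such a value is not by itself a change in OC, as levels in BMM enter it too. Mmp14, not called in OC, ran from 0.677 to 2.08 CPM in WT BMM and from 54.3 to 99.3 CPM in null BMM. Nuclear oxidative phosphorylation genes summed to 8759 to 9527 CPM in WT BMM and 10060 to 13550 CPM in null BMM. Sums of mitochondrially encoded genes (7324 to 8815 and 7325 to 12410 CPM) and of tricarboxylic acid cycle genes (1661 to 1900 and 1781 to 1939 CPM) overlapped. Irf8 differed in sign: it had a lower mean in null BMM than in WT BMM and a higher one in null OC than in WT OC, with an interaction of 3.17 (SE 0.11, adjusted p 4.44e-19, edgeR). The opposite held for Fos, Acp5 and Mmp9, which were higher in null BMM than in WT BMM and lower in null OC than in WT OC. For Ctsk the interaction was -6.46 (SE 0.52, adjusted p 4.23e-10), for Nfatc1 -2.52 (SE 0.20, adjusted p 3.86e-11) and for Tnfrsf11a -1.40 (SE 0.12, adjusted p 2.95e-10). It did not pass for Il1b (-0.36, SE 0.80, adjusted p 0.73). Nor did the interaction pass for Calcr, which was at 0 in null OC and in both BMM groups, so that its term rests on groups without counts.

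The shares of called genes were close with and without seed matches. Of 11727 tested genes with an annotated 3′ UTR, 1147 (9.78%) held a 5p match, and of these 33.8% were higher and 33.0% lower in null OC, beside 32.9% and 33.2% of genes without one. For the 3p arm, 2151 genes (18.3%) held a match, with 33.8% higher and 32.2% lower, beside 32.8% and 33.4% without. Genes with a match had longer UTRs, with medians of 2670 and 1265 bases for the 5p arm and 2531 and 1167 bases for the 3p arm. These UTRs were the longest over all annotated transcripts too, and some can include coding bases. Within 10 Mb of Mir324, 84 of 251 genes were higher and 86 lower (67.7% called), and over the autosomes and chromosome X the share called lay between 62.1% and 68.1%.

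Promoters of the genes that changed most were searched for letters bound by osteoclast transcription factors, in windows from 250 bases before to 50 after each annotated start (RefSeq, GRCm38.p6), on both strands. The letters were TGANTCA for AP-1, GGAAAA for NFAT, TCATGTG for the M-box of Mitf and GAGGAAG for PU.1, none of which contains another, and the kB motif of NF-kB was searched too, which can overlap NFAT letters. Of the tested genes, 9362 had a promoter to search, and a gene was counted if any of its promoters held the letters. These included 111 of the 174 genes at least 16-fold lower and 78 of the 103 at least 16-fold higher. AP-1 letters stood in 6.3% of the 9362 genes, 18.0% of the 111 lower and 11.5% of the 78 higher. NFAT letters stood in 24.3%, 33.3% and 26.9%, PU.1 letters in 16.2%, 17.1% and 23.1%, and M-box letters in 2.67%, 2.7% and 3.85%. The kB motif stood in 0.566% of the 9362 genes, in 0 of the 111 and in 1 of the 78. The promoters of 3 genes lower in null OC show where such letters lie, with matches in capitals: PU.1 and NFAT in Ctsk (chr3:95498960-95499259, plus strand) and in Oscar (chr7:3616108-3616407, minus strand), and PU.1 and AP-1 in Prdm1 (chr10:44458699-44458998, minus strand).
Ctsk: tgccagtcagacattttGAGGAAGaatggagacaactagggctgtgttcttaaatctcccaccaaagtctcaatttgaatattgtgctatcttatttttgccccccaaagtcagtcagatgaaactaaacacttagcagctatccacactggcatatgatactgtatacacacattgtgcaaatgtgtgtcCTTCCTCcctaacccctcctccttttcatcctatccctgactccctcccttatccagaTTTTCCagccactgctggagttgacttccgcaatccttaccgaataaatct
Oscar: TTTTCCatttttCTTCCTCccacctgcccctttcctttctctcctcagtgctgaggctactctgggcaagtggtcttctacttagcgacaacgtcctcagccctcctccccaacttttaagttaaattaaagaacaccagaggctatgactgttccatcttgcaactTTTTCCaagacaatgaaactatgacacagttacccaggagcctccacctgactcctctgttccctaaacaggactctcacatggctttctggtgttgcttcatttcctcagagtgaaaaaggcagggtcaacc
Prdm1: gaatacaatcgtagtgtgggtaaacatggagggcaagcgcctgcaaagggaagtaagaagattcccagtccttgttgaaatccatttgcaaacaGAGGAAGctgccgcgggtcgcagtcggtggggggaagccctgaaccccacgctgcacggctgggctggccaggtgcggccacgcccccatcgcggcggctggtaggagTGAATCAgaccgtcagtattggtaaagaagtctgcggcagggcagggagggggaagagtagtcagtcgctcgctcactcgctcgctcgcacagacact
These matches describe the letters in the windows and show neither binding nor a cause. The 3 genes are examples that hold matches. Among the genes with the largest falls, Calcr, St8sia6, Mst1r and Mt3 had none of the searched letters in their windows. Steap4 had NFAT letters and F2r had AP-1 letters.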

How the data were processed

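RNA was measured by bulk RNA-seq of total RNA (mirVana extraction, NEB low input RNA libraries, per the labels' protocols). Each deposited table gives, per the file headers, an estimated count, a length, an effective length and a TPM value per transcript. The submitters' processing notes name kallisto and DESeq2 and the build GRCh38, but the identifiers are of mouse Ensembl transcripts, and kallisto's role and version are not stated there. The authors' TPM values are scaled to a fixed total and carry no depth. Whether reads were assigned by strand is not given in the sources used here, so overlapping genes and near-identical copies are uncertain.

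Of 88198 transcripts, 97.54% were matched by identifier to GENCODE M21 (GRCm38). Estimated counts were summed to 30205 genes and rounded. After edgeR's filterByExpr and TMM scaling, genes were tested with edgeR 4.0.16 (R 4.3.3, limma 3.58.1), robust quasi-likelihood, on the 12 OC libraries, or on 24 for the interaction, without a block; Benjamini-Hochberg adjustment ran across the genes of each fit. SEs were computed from F statistics. CPM of listed genes share 1 scale over 24 libraries. A group without counts was set to a floor of 3 counts per library; floors cover counting error only. Medians of lists cover members that passed the filter. Scripts were tested on simulated data. Lists and members were chosen with earlier results of these data known. Genes named were 30 key genes, the 8 highest and 8 lowest fold changes (at least 10 CPM, separate ranges), the top 2 called of each list, and the 8 highest and 8 lowest of null OC 6; other list members are given by value and were chosen after values were seen. Alternatives were RLE scaling, other filters, DESeq2 1.42.0, limma-voom with quality weights, 24 or 36 libraries, a transcript length offset, a replicate block and leaving out each library.

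Replicate numbers did not pair the cultures: deviations of same-numbered WT OC and null OC libraries correlated between -0.102 and 0.017. Some genes of these lists are not reported here by name.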

Additional observations from a re-analysis of the deposited data

Results flagged for a closer look

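Among 43 named genes, a library stood apart from the other 5 of its group, by a gap that exceeded Dixon's 95% limit for 6 values (0.625 of the range), in 14 of 84 groups tested; chance gives about 1 in 20. Null OC 6 accounted for 8 of them: it was highest for Ctsk (222 CPM), Acp5 (165 CPM), Ocstamp (11.4 CPM), Dcstamp (6.86 CPM), Oscar (3.39 CPM), Mt3 (3.62 CPM) and Mst1r (2.41 CPM) and lowest for Mitf (42.8 CPM). The other libraries so marked were WT OC 4 for Clcn7 (772 CPM), Mitf (122 CPM) and Mt3 (144 CPM, the lowest), WT OC 5 for Prdm1 (59.3 CPM), null OC 1 for Itgb3 (15.02 CPM) and null OC 5 for Steap4 (0.311 CPM).

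The log2 genotype difference in OC minus that in BMM passed the interaction test of edgeR (Benjamini-Hochberg) for 6502 genes, among them 21 of 30 key genes with a negative and 7 with a positive value, of which 6 are named here. It was negative for the resorption genes Mmp9 (-13.84), Car2 (-10.93), Acp5 (-8.41), Ctsk (-6.46), Snx10 (-2.73), Tcirg1 (-1.03) and Clcn7 (-0.94) and for the fusion and attachment genes Ocstamp (-7.12), Dcstamp (-4.99), Itgb3 (-4.07) and Itgav (-2.16). It was also negative for the receptors and signalling genes Oscar (-9.66), Src (-6.95), Siglec15 (-4.28), Tnfrsf11a (-1.40) and Traf6 (-0.87) and for the transcription factors Prdm1 (-4.26), Nfatc1 (-2.52), Fos (-2.14), Spi1 (-0.68) and Mitf (-0.38). It was positive for Irf8 (3.17), Trem2 (1.92), Cd14 (1.40), Adgre1 (0.79), Bcl6 (0.68) and Csf1r (0.32). For Mmp9, Car2, Dcstamp, Ocstamp, Oscar, Siglec15 and Src the WT BMM level was under 1 CPM, and the fitted value then depends on the prior count. These values also include genotype differences without RANK-L and are not the size of the change in OC. Mmp9 ran from 0.0949 to 0.693 CPM in WT BMM and from 157 to 227 CPM in null BMM. Acp5 ran from 6.46 to 9.65 CPM and from 34.7 to 43.3 CPM.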

How the results depend on the processing

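The count of 7946 called genes kept within 1.5 times under each alternative run. Leaving out 1 library at a time gave 7595 to 8284 called genes, and the other planned settings gave 7556 (replicate block) to 8800 (fit of 36 libraries), with 7919 under RLE scaling, 8044 with DESeq2 and 8389 with limma-voom quality weights. The replicate block gave 7556 calls, and 6291 in place of 6502 for the interaction; as the numbers do not pair the cultures, it is given here only. Leaving out WT OC 4, null OC 3 and null OC 6 together, chosen after seeing the data, gave 8404. Of 86 named genes, 0 changed side of the threshold or direction in any setting run. All 86 were called in the main fit and many were picked for large fold changes, so the choice favoured stable calls. List members given only by value, many with small changes, and 15 genes named for null OC 6 alone were not followed across settings. Counts within short lists moved in 38 cases, mostly by 1 gene in the T cell, dendritic cell, mast cell, stromal and endothelial lists; the cell cycle genes lower in null OC numbered 10, and 6 in the fit of 24 libraries. Under RLE scaling the median log2 fold change over the genes tested was -0.014, against -0.025 in the main fit. Depth limits statements on Il1b, Efnb2, Steap4, Msln and Hp, whose low group holds few counts.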
